A study of Mus musculus with 10 samples.

Results

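The CD226 receptor family and its ligand Pvr were followed in mouse CD4 CD8 double-positive (DP) thymocytes that lacked the transcription factors E2A, HEB or both. The members are 5 genes of the 19937 named on the array: the receptor genes Cd226, Cd96, Tigit and Crtam, and the ligand gene Pvr. Where several probe sets carry a symbol the brightest on average stands for the gene, but each of the 5 had 1 probe set, so that choice decided nothing. The 5 genes were listed with the values of the genotype comparisons already known (Cd226 being among the largest rises in cells without E2A and HEB). Their differences between genotypes are therefore given as a description, with standard errors and without p-values. Where members are counted as called, the share of all tested genes stands beside the count, and nothing is read from it. Of the 5, 4 reached the intensity needed for the fit over 13138 genes and Crtam did not.

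All mice carried Cd4-cre, a recombinase driven by the promoter of Cd4, and were 8 weeks old. DKO mice were E2Aflox/flox and HEBflox/flox (n = 3), HEBKO mice were HEBflox/flox (n = 2), E2AKO mice were E2Aflox/flox (n = 2), and wild-type mice with Cd4-cre served as controls (WT, n = 3). Cells of individual thymuses were stained for CD4 and CD8, about 1000000 DP cells were sorted per mouse at over 98% purity, and 6 µg of total RNA was used for each Affymetrix array. Because Cd4-cre deletes the floxed genes late, as cells reach the DP stage, the arrays describe loss from that stage onward.

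Array medians lay between 92.6 and 98.6 intensity units. Arrays of the same genotype correlated at 0.981 to 0.992 over probe sets (log2 scale; probe sets are not independent replicates). Tcf3, which encodes E2A, averaged 9.05 ± 0.20 (log2 intensity, mean and SD) in DKO, 10.04 ± 0.03 in HEBKO, 9.17 ± 0.08 in E2AKO and 9.71 ± 0.12 in WT. Tcf12, which encodes HEB, averaged 10.71 ± 0.02 in DKO, 11.31 ± 0.23 in HEBKO, 11.93 ± 0.09 in E2AKO and 11.84 ± 0.09 in WT. Each targeted transcript was thus lowest in the genotypes that carry its floxed alleles. The fall of Tcf12 was uneven, with a mean intensity of 45.7% of WT in DKO but 70.0% in HEBKO. HEBKO 1 and 2 stood at 11.15 and 11.48, above all DKO arrays. Comparisons of DKO with HEBKO therefore also set different Tcf12 signals against each other, and the part of this was not tested. All 10 DP markers on the array, Cd4 and Cd8a among them, lay above the 40th percentile on all 10 arrays, and 7 of the 10 fell in DKO against WT.

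CD226 (also called DNAM-1), CD96, TIGIT and CRTAM are cell surface proteins of the immunoglobulin superfamily carried by natural killer (NK) cells and T cells. CD226 activates these cells, TIGIT inhibits them, and both bind PVR (CD155, Necl-5), as does CD96. CRTAM, named as a class I-restricted T cell-associated molecule, binds CADM1 (Necl-2) instead. E2A and HEB are basic helix-loop-helix proteins that bind DNA at E-boxes. DP thymocytes rearrange their T cell receptor alpha genes and then undergo selection.

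E-boxes, the DNA motif that E2A and HEB bind, were counted in the promoter windows of the RefSeq table (build GRCm38.p6, 250 bases before the transcription start to 50 after), which held Cd96 and Tigit of the 5 members, and Igsf23 with 2 starts. These windows are shown because they set a member without a near E-box beside one with E-boxes, both with little difference between genotypes, and beside Igsf23, the gene next to Pvr, which fell in DKO; they run 5′ to 3′ on the gene's strand and capitals mark each CANNTG. The coordinates are chr16:46120199-46120498 for Cd96, chr16:43664135-43664434 for Tigit, and chr7:19953605-19953904 and chr7:19950694-19950993 for Igsf23, all on the minus strand.
Cd96: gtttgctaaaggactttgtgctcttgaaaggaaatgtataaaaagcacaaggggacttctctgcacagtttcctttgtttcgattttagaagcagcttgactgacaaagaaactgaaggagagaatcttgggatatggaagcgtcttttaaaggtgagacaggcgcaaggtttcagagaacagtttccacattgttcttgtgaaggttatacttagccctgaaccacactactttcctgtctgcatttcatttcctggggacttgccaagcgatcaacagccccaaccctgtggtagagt
Tigit: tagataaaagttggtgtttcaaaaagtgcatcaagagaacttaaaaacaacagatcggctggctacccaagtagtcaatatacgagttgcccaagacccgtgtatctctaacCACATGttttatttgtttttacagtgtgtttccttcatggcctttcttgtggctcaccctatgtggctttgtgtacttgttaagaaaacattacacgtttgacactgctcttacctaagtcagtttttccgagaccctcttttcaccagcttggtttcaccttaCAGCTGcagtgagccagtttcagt
Igsf23, upstream start: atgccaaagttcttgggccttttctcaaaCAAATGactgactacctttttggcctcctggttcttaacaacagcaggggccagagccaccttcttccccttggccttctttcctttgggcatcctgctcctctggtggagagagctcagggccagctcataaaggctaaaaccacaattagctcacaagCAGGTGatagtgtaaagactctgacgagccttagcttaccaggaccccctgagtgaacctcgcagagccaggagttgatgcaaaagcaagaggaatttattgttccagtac
Igsf23, downstream start: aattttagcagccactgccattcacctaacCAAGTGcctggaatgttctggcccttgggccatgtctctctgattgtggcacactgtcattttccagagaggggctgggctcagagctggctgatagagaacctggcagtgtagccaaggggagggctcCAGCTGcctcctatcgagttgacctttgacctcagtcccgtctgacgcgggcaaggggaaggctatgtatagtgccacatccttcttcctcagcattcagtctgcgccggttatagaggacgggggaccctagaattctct

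The Cd96 window held 0 copies of CANNTG, where 72.3% of the 32851 windows in the table held at least 1. The Tigit window held 2, CACATG at -138 and CAGCTG at 26 bases from the start, and 39.6% of all windows held at least 2. CAGCTG, which reads the same on both strands and is counted within CANNTG, occurred in 16.3% of all windows. Each Igsf23 window held 2, with CAGGTG (or CACCTG on the other strand, found in 20.2% of all windows) at -61 in the upstream window and CAGCTG at -91 in the downstream window. A match describes the letters only. No window was held for Cd226, Crtam or Pvr, and any link between these E-boxes and the genotype differences was not tested.

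Cd226, the activating receptor, separated DKO cells from all other genotypes. Its log2 intensity was 10.42, 10.75 and 11.01 in DKO 1 to 3, 8.01 and 7.18 in HEBKO 1 and 2, 6.82 and 7.73 in E2AKO 1 and 2, and 6.64, 7.05 and 7.13 in WT 1 to 3. Every DKO array lay above every other array, and the lowest DKO array exceeded the highest HEBKO array by 2.41 log2 units. Both HEBKO arrays lay above all WT arrays, HEBKO 2 by only 0.05, while E2AKO 1 lay inside the WT range and E2AKO 2 above it. On the linear scale the mean intensity was 1719 ± 347 (SD, n = 3) in DKO, 201 ± 80.4 (n = 2) in HEBKO, 162 ± 69.6 (n = 2) in E2AKO and 124 ± 21.5 (n = 3) in WT. The order of the genotypes was therefore DKO, HEBKO, E2AKO, WT, with HEBKO and E2AKO overlapping each other and E2AKO overlapping WT.

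The Cd226 difference of DKO over WT was 3.79 ± 0.26 (log2, SE of the limma fit), or 13.8-fold, the rank 3 rise among 13138 tested genes. Against HEBKO the difference was 3.13 ± 0.29, or 8.78-fold, and against E2AKO 3.45 ± 0.29, or 11.0-fold. HEBKO over WT gave 0.66 ± 0.29 and E2AKO over WT gave 0.34 ± 0.29. The 3 comparisons with WT share the WT arrays. On the array, Cd226 moved to between the 95.2 and 97.3 percentile of all probe sets in DKO, against 50.2 to 59.0 in WT. Markers of gamma-delta T cells lay at similar WT levels (Sox13 averaged 6.74 and Cd163l1 6.72, log2 intensity), and no background signal was measured for the Cd226 probe set, so how far its WT signal exceeds background was not tested.

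**Figure D1:**
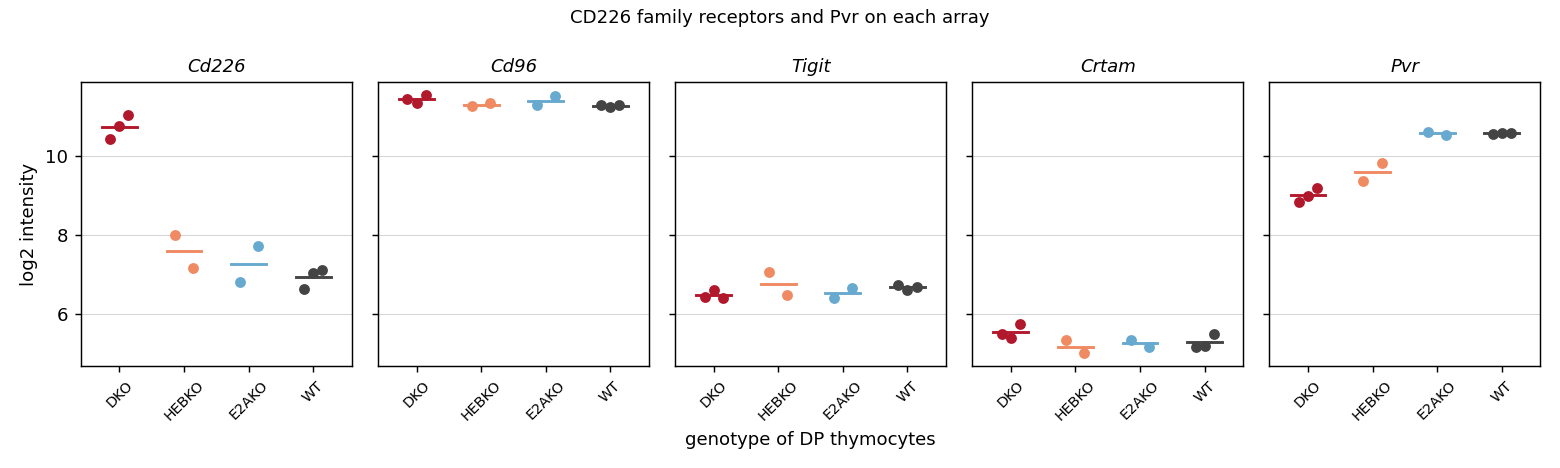
Log2 intensity (y axis) of Cd226, Cd96, Tigit, Crtam and Pvr in DP thymocytes of each genotype (x axis), with a point per array and a bar at the group mean; heights of different genes are different probe sets and are not comparable. Cd226 stands at 10.42 to 11.01 in DKO, above all other arrays, and Pvr at 8.84 to 9.18 in DKO and 9.36 to 9.80 in HEBKO, below all E2AKO and WT arrays.

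The mature T cell markers rose with Cd226 in DKO. All 7 tested genes of the mature single-positive list, which holds S1pr1, Klf2, Ccr7 and Il7r, rose in DKO against WT, where 8.18% of all tested genes rose. The list was chosen with earlier results of these data known. The summed intensity of its genes was 4110 to 5616 in DKO, 773 to 1430 in HEBKO, 724 to 932 in E2AKO and 793 to 837 in WT. Within HEBKO the sum was 1430 in HEBKO 1, the array with the higher Cd226, and 773 in HEBKO 2. Within E2AKO it was 932 in E2AKO 2, again the array with the higher Cd226, and 724 in E2AKO 1. Within WT and DKO the sum did not keep the order of Cd226. WT 3, with the highest Cd226 of WT, had the lowest sum (793). DKO 1, with the lowest Cd226 of DKO, had a higher sum (4743) than DKO 2 (4110). The part of these genes in the Cd226 values was not tested. In sorted bulk cells, a change in the number of cells that express a gene and a change in RNA per cell cannot be told apart.

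Markers of NK cells, the cells best known for CD226, did not separate DKO from WT as a list. Of 12 NK markers, 8 lay below the 40th percentile on all 10 arrays, including the 3 defining ones, Ncr1, Klrb1c and Eomes. Ncr1, the NK receptor NKp46, averaged 4.93 (log2 intensity) in DKO and reached at most 5.22 in any WT array. The summed intensity of the 12 genes was 683 to 845 in DKO, 671 to 927 in HEBKO, 596 to 662 in E2AKO and 617 to 689 in WT, so the DKO and WT ranges overlapped. As for the mature T cell list, the sum was higher in HEBKO 1 (927) than HEBKO 2 (671), and in E2AKO 2 (662) than E2AKO 1 (596). Within DKO and WT it was highest in DKO 1 (845) and WT 2 (689), not in the arrays with the highest Cd226. The part of these genes in the Cd226 values was not tested either. Nkg7, a granule protein shared by NK cells and cytotoxic T cells, was the 1 member of this list that rose in DKO (1.89 ± 0.25, limma adjusted p = 0.000396). Of the 6 innate-like T cell markers, 2 were tested and 3 lay below the 40th percentile on all arrays. Zbtb16 rose in DKO against WT (0.59 ± 0.14, limma adjusted p = 0.0135) and Cxcr3 was not called (0.06 ± 0.14, adjusted p = 0.839). Il2rb, the other defining marker beside Zbtb16, lay below the 40th percentile on all DKO and WT arrays. The list's summed intensity was 403 to 432 in DKO, 329 to 411 in HEBKO, 331 to 336 in E2AKO and 345 to 383 in WT.

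Cd96, a receptor that competes with CD226 for PVR, was strongly and evenly expressed. Its log2 intensity was 11.42, 11.33 and 11.52 in DKO, 11.25 and 11.32 in HEBKO, 11.27 and 11.49 in E2AKO, and 11.27, 11.23 and 11.26 in WT. All 10 values lay between the 97.9 and 98.5 percentile of the array. The DKO arrays were above the WT arrays by a margin of 0.06, and the mean difference was 0.17 ± 0.09 (log2, SE), near the middle of all tested genes (58.4% had a smaller absolute difference). HEBKO over WT was 0.03 ± 0.10 and E2AKO over WT 0.13 ± 0.10. The order DKO, E2AKO, HEBKO, WT is not a separation, since DKO overlapped E2AKO and HEBKO overlapped WT.

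Tigit, the inhibitory receptor, stayed near the middle of the array in all genotypes. Its log2 intensity was 6.44, 6.61 and 6.42 in DKO, 7.06 and 6.49 in HEBKO, 6.41 and 6.67 in E2AKO, and 6.74, 6.62 and 6.69 in WT. The highest value was HEBKO 1, the array that also had the higher Cd226 of its genotype. DKO lay just below WT, by a margin of 0.0087, and the mean difference was -0.19 ± 0.14. HEBKO over WT was 0.09 ± 0.15 and E2AKO over WT -0.14 ± 0.15. In the order HEBKO, WT, E2AKO, DKO, each genotype overlapped its neighbour.

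Crtam was under the 40th percentile on each of the 10 arrays and was left out of the fit. Its log2 intensity was 5.51, 5.40 and 5.75 in DKO, 5.36 and 5.03 in HEBKO, 5.37 and 5.18 in E2AKO, and 5.17, 5.22 and 5.50 in WT. DKO and WT overlapped, and no fold is given for values at this level. Cadm1, which encodes the ligand of CRTAM, was 6.87, 6.53 and 6.48 in DKO, 6.66 and 6.71 in HEBKO, 6.63 and 6.81 in E2AKO, and 6.80, 6.62 and 6.58 in WT, a difference of -0.05 ± 0.12 in DKO against WT (limma adjusted p = 0.859).

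Pvr, the ligand of CD226, TIGIT and CD96, went the other way from Cd226 in DKO and was already lower in HEBKO. Its log2 intensity was 8.84, 8.99 and 9.18 in DKO 1 to 3, 9.36 and 9.80 in HEBKO 1 and 2, 10.60 and 10.52 in E2AKO 1 and 2, and 10.55, 10.57 and 10.57 in WT 1 to 3. The genotypes formed steps, with all DKO arrays below both HEBKO arrays, all HEBKO arrays below both E2AKO arrays, and E2AKO on both sides of WT. Mean Pvr intensity was 34.1% of WT in DKO, 51.4% in HEBKO and 100.1% in E2AKO. WT and E2AKO were tightly grouped, with an SD of 0.01 in WT and 0.06 in E2AKO, against 0.17 in DKO and 0.31 in HEBKO.

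Thymic epithelial markers were examined beside Pvr, because PVR is also made by epithelial and stromal cells. Of 7 such markers, all on the array, 5 were tested; Cldn4 and Epcam fell in DKO against WT and Cldn4 in HEBKO, while Foxn1, Krt8 and Ccl25 were not called. Of the 3 defining markers, Krt5 and Psmb11 lay below the 40th percentile on all arrays, and Foxn1, near that level, differed by 0.04 ± 0.10 in DKO over WT (limma adjusted p = 0.863). The summed intensity of the 7 markers was 659 to 672 in DKO, 660 to 713 in HEBKO, 740 to 769 in E2AKO and 898 to 948 in WT. Cldn4, the brightest of the 7 in WT, weighs heavily in this sum. It averaged 7.16 (log2 intensity) in DKO, 7.40 in HEBKO, 7.71 in E2AKO and 8.41 in WT, while Ccl25 averaged 7.62 in DKO and 7.65 in WT. The part of epithelial cells in the Pvr values was not tested. DP markers summed to 24008.5 to 28287.9 in DKO, 34612.7 to 45827.8 in HEBKO, 47502 to 48934.6 in E2AKO and 48356.5 to 50725 in WT, an order that Pvr shares in DKO and HEBKO; this was not tested either. Of the macrophage and dendritic cell markers 0 of 2 tested were called in DKO against WT, of the gamma-delta T cell markers 0 of 5, of the red cell markers 0 of 1, and of the B cell markers 1 of 2 fell.

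The Pvr difference of DKO over WT was -1.56 ± 0.12 (log2, SE), 2.95-fold lower, and ranked 45 among the falls of 13138 tested genes. HEBKO over WT was -0.98 ± 0.14, 1.97-fold lower, and ranked 34 among the falls of that comparison. E2AKO over WT was 0.00073 ± 0.14. DKO was also below HEBKO, by a difference of -0.58 ± 0.14, with no overlap of their arrays.

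Cd226 and Pvr thus departed differently from the sum of the single losses. For Cd226 the differences from WT in E2AKO and HEBKO added up to 0.99 log2 units, where DKO differed by 3.79, a departure (DKO - E2AKO - HEBKO + WT) of 2.80 ± 0.41. That departure was the rank 4 positive value among 13138 tested genes. For Pvr the single differences added up to -0.98, nearly all of it from HEBKO, where DKO differed by -1.56, a departure of -0.58 ± 0.19. That Pvr departure was not called in the fit over all genes, and was -0.80 without HEBKO 1 and -0.36 without HEBKO 2. Tcf12 signal was also lower in DKO than in HEBKO, and its part in the departures was not tested. Cd96 departed by 0.01 ± 0.15 and Tigit by -0.15 ± 0.22, both smaller in size than their standard errors.

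**Figure D2:**
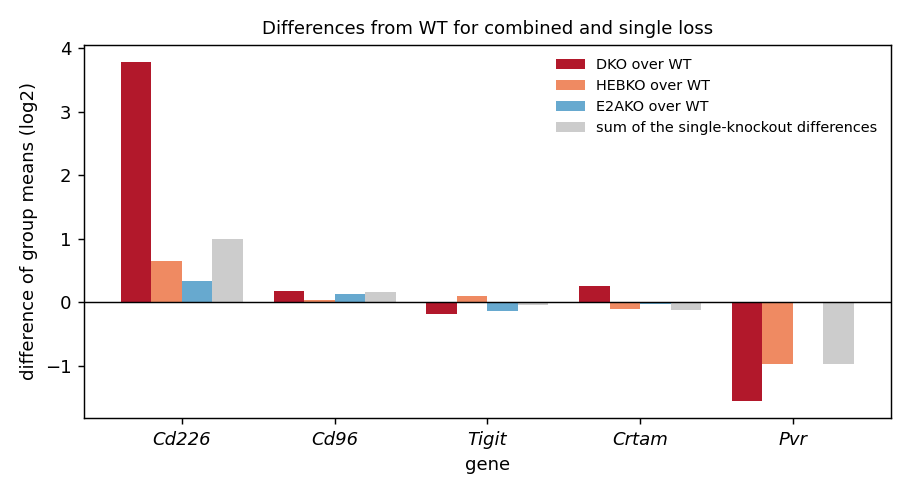
Bars give the difference of group means on the log2 scale (y axis) for each gene (x axis): DKO over WT, HEBKO over WT, E2AKO over WT, and the sum of the E2AKO and HEBKO differences. For Cd226 the DKO bar (3.79) is far above the sum (0.99), and for Pvr the DKO bar (-1.56) lies below a sum (-0.98) that comes from HEBKO. Crtam was left out of the fit, and its bars rest on values below the 40th percentile of every array.

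By the fit over all genes, a gene was called at a Benjamini-Hochberg adjusted p under 0.05. Of the 4 members tested, 2 were called in DKO against WT, where 13.6% of all tested genes were, 1 in HEBKO against WT (0.906% of all tested genes) and 0 in E2AKO against WT (0% of all tested genes, with 418 genes at an unadjusted p under 0.05). Of the same 4, 2 were called in DKO against HEBKO (3.63% of all tested genes), 2 in DKO against E2AKO (9.07%) and 1 for the departure from additivity (0.632%). Arrays of DKO and WT did not overlap for 4 of the 5 members, against 30% of all tested genes. The arrays did not overlap for 2 members in HEBKO against WT (30.5% of all tested genes), for 1 in E2AKO against WT (16.4%), for 4 in DKO against HEBKO (31.8%) and for 3 in DKO against E2AKO (40.2%). The counts of members without overlap include Crtam, which was not tested. Nothing is read from any of these counts, because the genes were listed with the values known.

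Other ligand genes were examined next. Of 9 ligand and counter-receptor genes listed, 7 were on the array under their own symbol and 5 were tested, and 0 were called by limma in DKO, HEBKO or E2AKO against WT (at an unadjusted p under 0.05 there were 0, 1 and 0, and with trend and robust moderation 0 in each). Their median difference in DKO over WT was -0.05, against -0.01 for all tested genes. Nectin1, a cell adhesion molecule that CD96 binds in mice, was 6.30, 6.25 and 6.02 (log2 intensity) in DKO, 6.04 and 5.91 in HEBKO, 6.14 and 6.17 in E2AKO, and 6.39, 6.25 and 6.31 in WT. Its HEBKO over WT difference of -0.34 ± 0.11 (limma adjusted p = 0.156) was the smallest p of the group, and both HEBKO arrays lay below the 40th percentile. Nectin2, which encodes a further ligand of CD226 and TIGIT, ranged from 5.85 to 6.08 in DKO, 5.77 in both HEBKO arrays, 5.76 to 5.87 in E2AKO and 5.86 to 6.10 in WT, and was left out of the fit for low signal. Nectin3, an adhesion molecule that binds PVR, differed by 0.06 ± 0.17 in DKO over WT (limma adjusted p = 0.87), Nectin4 by -0.16 ± 0.14 (adjusted p = 0.541) and Cadm4 by -0.01 ± 0.10 (adjusted p = 0.975).

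Itgal and Itgb2 encode the chains of LFA-1, the integrin with which CD226 associates. Neither was called in DKO against WT. Itgb2 was 11.10, 11.28 and 11.55 (log2 intensity) in DKO, 10.92 and 10.70 in HEBKO, 10.83 and 11.13 in E2AKO, and 11.10, 11.00 and 10.97 in WT, a difference of 0.29 ± 0.13 in DKO over WT (limma adjusted p = 0.183). Itgal differed by 0.04 ± 0.10 in DKO over WT (limma adjusted p = 0.867).

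Among 16 tested genes of signalling partners, 5 rose and 1 fell in DKO against WT and 10 did not pass, with a median difference of 0.08 against -0.01 over all genes; 8.18% of all tested genes rose and 5.41% fell. In HEBKO and in E2AKO against WT 0 of the 16 were called by limma (2 and 0 at an unadjusted p under 0.05, and 0 in each with trend and robust moderation). Foxo1, a transcription factor that the kinase Akt holds out of the nucleus, was 9.95, 9.77 and 10.25 (log2 intensity) in DKO, 8.86 and 8.29 in HEBKO, 8.64 and 8.30 in E2AKO, and 8.72, 8.65 and 8.19 in WT. Its DKO arrays lay above all others, as for Cd226, and DKO exceeded HEBKO by 1.42 ± 0.21 (limma adjusted p = 0.00304) and E2AKO by 1.52 ± 0.21 (adjusted p = 0.000804).

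Prkcq, the kinase PKC theta of the T cell synapse, was 11.45, 11.53 and 11.75 in DKO, 11.09 and 10.88 in HEBKO, 10.91 and 11.06 in E2AKO, and 10.84, 10.88 and 10.96 in WT. DKO exceeded WT by 0.69 ± 0.11 (limma adjusted p = 0.00115), and HEBKO and E2AKO overlapped each other. Fyn, a Src-family kinase that acts on CD226, rose by 0.52 ± 0.11 (adjusted p = 0.0107), a call lost without DKO 3 (0.45). Arrb2, an adaptor linked to TIGIT signalling, rose by 0.59 ± 0.16 (adjusted p = 0.0331), and lost its call in 6 of 17 alternatives: without WT 1, WT 2, WT 3, DKO 1 or DKO 3, and with quantile normalisation run again. Ptpn6, the phosphatase SHP-1, rose by 0.37 ± 0.11 (adjusted p = 0.0476), a call lost in 12 of 17 alternatives.

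Inpp5d, the lipid phosphatase SHIP-1 that TIGIT recruits, was 9.39, 9.56 and 9.71 in DKO, 9.59 and 9.74 in HEBKO, 10.02 and 9.89 in E2AKO, and 9.94, 10.05 and 9.94 in WT. It fell in DKO against WT (-0.42 ± 0.10, limma adjusted p = 0.0187), a call lost without WT 3, DKO 1 or DKO 2. DKO and HEBKO overlapped, and all arrays of both lay below E2AKO and WT. For the departure from additivity 0 of the 23 ligand and partner genes were called by limma (5 at an unadjusted p under 0.05, and 1 with trend and robust moderation), with Foxo1 nearest at 1.47 ± 0.30 (limma adjusted p = 0.0545).

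**Figure D3:**
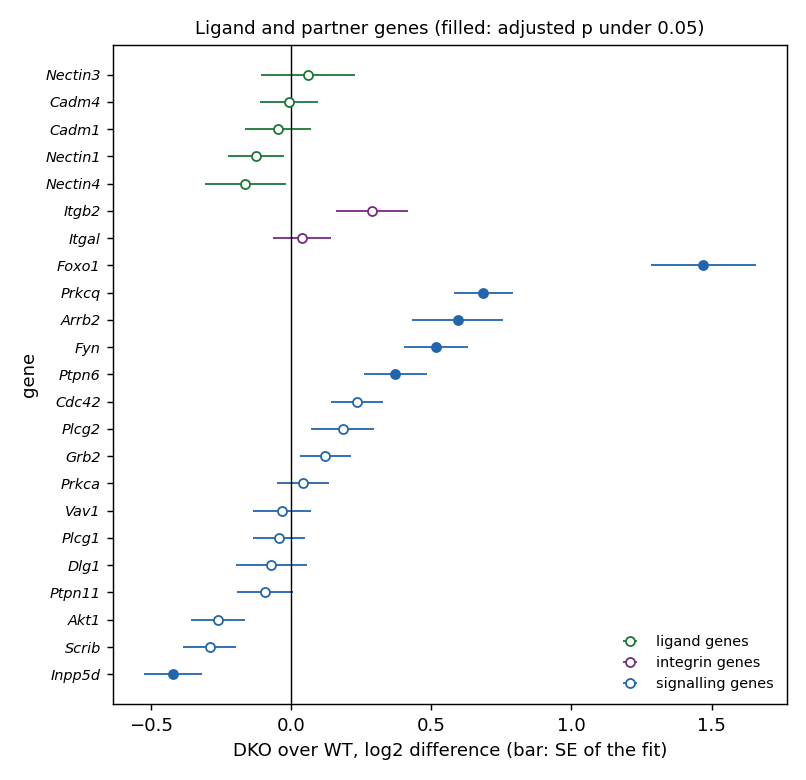
Difference of DKO over WT (x axis, log2, with the SE of the fit as bars) for the 23 tested ligand, integrin and signalling genes (y axis); filled points passed an adjusted p of 0.05. The 5 ligand genes lie between -0.16 and 0.06, while Foxo1 (1.47) and Prkcq (0.69) lead the 5 signalling genes that rose.

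The genes next to each member along the chromosome were tested as well. They were picked by position, but beside members that had been listed with their values known. Of 19 such genes, 1 rose and 1 fell in DKO against WT, where 13.6% of all tested genes were called. Igsf23, an immunoglobulin superfamily gene that is the next tested gene on one side of Pvr, with 0 other protein-coding genes starting between them and no overlap of their intervals in the RefSeq table, fell. Its log2 intensity was 6.87, 6.93 and 6.71 in DKO, 7.10 and 7.20 in HEBKO, 7.91 and 7.81 in E2AKO, and 7.85, 8.20 and 8.06 in WT. The genotypes followed the order of Pvr, with DKO lowest, HEBKO next, and E2AKO overlapping WT.

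The Igsf23 difference was -1.20 ± 0.11 in DKO over WT (limma adjusted p = 2.97e-05) and -0.89 ± 0.12 in HEBKO over WT (adjusted p = 0.0106). In E2AKO over WT it was -0.18 ± 0.12 (limma adjusted p = 0.998), and between DKO and HEBKO -0.31 ± 0.12 (adjusted p = 0.235). The DKO call held in 17 of 17 alternatives and the HEBKO call in 15 of 17, being lost without WT 3 or without HEBKO 1 (adjusted p at most 0.15 over the alternatives). The 3 other neighbours of Pvr, Bcl3, Ceacam16 and Ceacam20, differed by -0.13, -0.21 and -0.09 in DKO over WT and were not called.

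**Figure D4:**
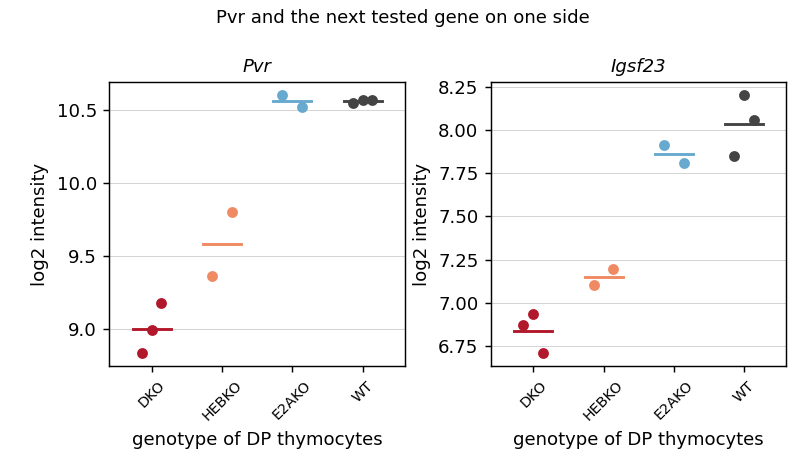
Log2 intensity (y axes, each with its own range) of Pvr and of its neighbour Igsf23 in DP thymocytes of each genotype (x axis), with a point per array and a bar at the group mean. In both genes the DKO arrays are lowest (8.84 to 9.18 for Pvr, 6.71 to 6.93 for Igsf23), the HEBKO arrays are next and the E2AKO and WT arrays overlap at the top.

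None of the 3 tested neighbours of Cd226 was called in DKO against WT. Rttn, which encodes a centriole protein, differed by 0.31 ± 0.13 in DKO over WT (limma adjusted p = 0.149), Socs6, a suppressor of cytokine signalling, by 0.21 ± 0.10 (adjusted p = 0.209), and Tmx3, a thioredoxin-related protein, by -0.01 ± 0.10 (adjusted p = 0.96). Next to Tigit, Qtrt2, a subunit of a tRNA-modifying enzyme, rose in DKO (0.60 ± 0.12, adjusted p = 0.00809). Of the 4 tested neighbours of Cd96, which include Nectin3, 0 were called in DKO, the differences running from -0.23 to 0.31.

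The transcripts most like Cd226 over the 10 arrays, by Pearson correlation of log2 values, were Utrn (r = 0.994), which encodes utrophin, a relative of dystrophin, Cyth4 (r = 0.990), an exchange factor of ARF GTPases, and Ipcef1 (r = 0.990), which binds a member of the same exchange factor family. Mean log2 intensity of Cyth4 was 9.69 in DKO, 7.96 in HEBKO, 7.66 in E2AKO and 7.72 in WT. Those most like Pvr were Map4k5 (r = 0.990), a kinase, Clk3 (r = 0.990), a kinase that acts on splicing factors, and Usp7 (r = 0.990), a deubiquitinase. Map4k5 averaged 7.92 in DKO, 8.74 in HEBKO, 9.76 in E2AKO and 9.75 in WT. All these values come from the same 10 arrays, fall into genotype groups and were chosen for their likeness, so they are a description.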

How the data were processed

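Affymetrix intensities of 34760 probe sets in 10 arrays, 1 per mouse, were used. The authors deposited intensity values on a linear scale, made with RMA per the submitters' processing notes; the version and the annotation file are not given in the sources used here. Here log2 was taken without a pseudocount. Probe sets with 1 gene symbol in GEO's platform annotation (21640; 1321 had several and 11799 none) gave 19937 genes, each represented by its highest-mean probe set. Testing was limited to the 13138 genes at or above the array's 40th percentile in 2 or more arrays.

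Genotype means were estimated from the 10 arrays together in limma 3.58.1 under R 4.3.3 (6 residual and 5.68 prior degrees of freedom). P-values are two-sided, with Benjamini-Hochberg adjustment across the tested genes. For arrays, their number limits the precision. Members and lists were chosen with earlier results of these data known. Genes named are the 5 members, ligand genes, called partner genes, the 2 nearest tested genes on either side of each member where present, the 3 genes most correlated with each member, Tcf3, Tcf12 and listed markers; Grb2 lies outside this rule. Cadm2, Pvrig and Lck, on the partner lists, had no row of their own symbol here. Marker lists also covered B cells, macrophages and dendritic cells, gamma-delta T cells, thymic epithelium and red cells. Alternatives dropped the filter, normalised by quantiles again, averaged a gene's probe sets, moderated with trend and robust options (statmod 1.5.0), weighted arrays, fitted the compared groups alone, blocked on replicate number, or left out each array.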

Additional observations from a re-analysis of the deposited data

Results flagged for a closer look

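Grb2, an adaptor of receptor signalling, lay above all WT arrays in both HEBKO arrays (9.71 and 9.56, log2 intensity) and below all WT arrays in both E2AKO arrays (9.49 and 9.43), against 9.55, 9.51 and 9.50 in WT. Such a lack of overlap was found for 30.5% of all tested genes in HEBKO against WT and 16.4% in E2AKO against WT. Grb2 was not called in HEBKO over WT (0.11 ± 0.10, limma adjusted p = 0.638) or in E2AKO over WT (-0.06 ± 0.10, limma adjusted p = 0.998). The difference of HEBKO over E2AKO was 0.17, and this difference between the effects was not tested. No genotype has 4 arrays or more, so no array could be examined as an outlier within its genotype.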

How the results depend on the processing

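The Cd226 difference of DKO over WT ran from 3.64 to 3.94 over 16 alternatives and that of Pvr from -1.65 to -1.48. Pvr in HEBKO over WT ran from -1.20 (without HEBKO 2) to -0.76 (without HEBKO 1), and DKO over HEBKO from -0.80 to -0.36. Cd226 in HEBKO over WT was 0.24 without HEBKO 1 and 1.07 without HEBKO 2, and in E2AKO over WT -0.12 without E2AKO 2 and 0.79 without E2AKO 1. Cd96 in DKO over WT was 0.066 when the arrays were quantile normalised again. Tigit in DKO over HEBKO ran from -0.57 to 0.0020 as arrays were left out, its sign turning without HEBKO 1. Of 386 alternative values of the members, 19 had the opposite sign to the reported value, in 9 differences of which the largest was 0.34 in size (Cd226 in E2AKO over WT); the others were differences of Cd96, of Tigit, and Pvr in E2AKO over WT.

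Leaving out each array gave 995 to 1917 genes called in DKO against WT (1786 with all), 2 to 496 in HEBKO against WT (119 with all), 0 in E2AKO, 194 to 499 for DKO against HEBKO (477 with all), 585 to 1293 for DKO against E2AKO (1191 with all), and 27 to 122 for the departure from additivity (83 with all). Ligand and partner genes called numbered 3 to 5 in DKO (6 with all), 0 to 1 in HEBKO and 0 to 1 for the departure. Array weights, whose estimation stopped short of its tolerance, gave 3655 genes in DKO, 10 of them ligand or partner genes, and 515 in HEBKO; the groups compared alone gave 36 in HEBKO. Trend and robust moderation called 1 partner gene for the departure. Deviations from the group means correlated above 0.1 in 10 of 13 pairs of arrays with the same replicate number (-0.29 to 0.48) and in 5 of 24 other pairs. In groups of 2 arrays the deviations mirror each other, so these pairs are not independent. DKO 2 correlated at 0.0077 with WT 2 and 0.122 with WT 3. The numbers were not taken as pairs in the reported fit and entered only as a block in 1 alternative. With the replicate block, 2321 genes were called in DKO against WT, 1 in E2AKO and 43 for the departure, and Cd226 in DKO over WT stayed at 3.79. Among the named partner calls the block ended that of Fyn in DKO over HEBKO (0.49). DKO against WT fell below the full count by over 1.5 times without WT 3 (995), DKO 2 (1127) or DKO 3 (1040). For HEBKO against WT, omitting WT 2 gave 496 genes, DKO 1 76, DKO 2 55, WT 1 24, WT 3 13 and HEBKO 1 2. The causes were not tested. The departure was not fitted with the compared groups alone. Trend and robust moderation is not counted among the alternatives of the members, because it leaves their differences unchanged, though it can change their standard errors. Signal near the floor limits Crtam, which had a value only with no filter (0.25 in DKO over WT).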

Other observations

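By the same measure of likeness over the 10 arrays, the transcripts nearest to Cd96 were Pecam1 (r = 0.949), Cd274 (r = 0.936) and Sfxn4 (r = 0.906). Pecam1 encodes an adhesion molecule and Cd274 the checkpoint ligand PD-L1. Cd274 averaged 8.07 ± 0.09 (log2 intensity, mean and SD) in DKO, 7.91 ± 0.04 in HEBKO, 8.01 ± 0.25 in E2AKO and 7.83 ± 0.09 in WT. Those nearest to Tigit were Adamts8 (r = 0.943), Sez6l2 (r = 0.939) and Apold1 (r = 0.930), and those nearest to Crtam were Lgals4 (r = 0.896), Tbc1d22b (r = 0.894) and Pea15a (r = 0.892). Tigit was highest in HEBKO 1. Adamts8, Sez6l2 and Apold1 had an SD of 0.36, 0.22 and 0.34 in HEBKO, and at most 0.12 in the other genotypes. Crtam lay below the 40th percentile on all arrays. Cd96, Tigit and Crtam varied little over the arrays, and the correlations are a description. Next but one to Crtam, the small nucleolar RNA gene Snord14e rose in HEBKO against WT (0.91 ± 0.18, limma adjusted p = 0.0397), a call that held in 9 of 17 alternatives.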
